A study of Homo sapiens with 16 samples.

Results

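The amino acid transporter genes of the SLC1, SLC3, SLC6, SLC7, SLC36, SLC38 and SLC43 families were followed in MDA-MB-231 cells with and without TXNIP, and after knockdown of Myc. Members were the protein-coding genes whose symbol is one of these family names followed by a number, and pseudogenes and antisense genes were left out. There were 59 members among 60719 gene identifiers. Of these, 28 had a mean of at least 1 CPM (read counts scaled by library total and TMM factors) over the 16 libraries, as did 13448 genes in all. By family, 7 of 11 SLC38 genes, 6 of 13 SLC7 genes, 5 of 7 SLC1 genes, 4 of 19 SLC6 genes, 3 of 3 SLC43 genes, 2 of 4 SLC36 genes and 1 of 2 SLC3 genes reached this level. Of the 31 members below it, 10 had no read in any library, 20 (these 10 included) were under 0.1 CPM in every group, and SLC6A12, SLC6A14 and SLC7A4 reached 1 CPM in at least 1 group.

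MDA-MB-231 cells derive from a triple-negative breast cancer, and 231:TKO denotes MDA-MB-231 cells in which CRISPR/Cas9 was used to delete TXNIP, a gene for a protein that restrains glucose uptake. RNA was sequenced from untreated wild-type cells (parental 231) and untreated 231:TKO cells, with 2 replicates each, and from both populations 48 hours after transfection with siMyc, an siRNA that targets Myc, or with siNT, a non-targeting control siRNA, with 3 replicates each. All cells grew in DMEM with fetal bovine serum and added non-essential amino acids. The 231:TKO cells were grown from single cells, so that a difference from parental 231 is that of the isolated clones and not only of the deleted gene. The study calls the untreated libraries and the siRNA libraries of 231:TKO biological replicates. The sources used here do not say whether these were separate cultures, and the p-values measure the spread between these libraries.

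Total counts per library lay between 18953668 and 59799444. TXNIP mRNA was between 283 and 467 CPM in the parental 231 libraries and between 6.54 and 45.5 in the 231:TKO libraries, and MYC mRNA was between 58.1 and 67.6 CPM with siMyc and between 121 and 144 with siNT. Markers of mesenchymal cells (VIM, FN1, CD44, AXL) summed to between 4183 and 6599 CPM per library, whereas ESR1 was at most 0.305 CPM, PGR at most 0.081, PTPRC at most 1.48 and ALB at most 0.064, and ERBB2 lay between 76 and 106. COL1A1, listed with PTPRC and ALB as a marker of other cell types, lay between 4.23 and 20.3 CPM. In the headers of the count tables, the siRNA libraries of 231:TKO and of parental 231 carry different numbers, called header numbers here. The sources used here do not say what these numbers stand for. The 2 sets were counted on an earlier and a later Ensembl release, so that population, header number and release cannot be told apart between them. The untreated libraries carry another header number and were counted as single reads, whereas the siRNA libraries were counted as read pairs. Replicate 1 of parental 231+siNT and replicate 3 of parental 231+siMyc stood apart together from the other parental siRNA libraries: their deviations from the group means correlated at 0.87 over genes, and comparisons that use them are given with and without them. The untreated 231:TKO replicates also lay far apart, with 871 genes differing by more than 1 on the log2 scale, against 134 between the parental 231 replicates.

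Amino acid transporters of these families move amino acids across the cell membrane and the lysosomal membrane by exchange, by cotransport with sodium or protons, or by facilitated diffusion. SLC7A5, SLC7A6, SLC7A7, SLC7A8, SLC7A10 and SLC7A11 are light chains that reach the membrane bound to the heavy chain SLC3A2, and SLC1A5 brings in glutamine, which SLC7A5 can exchange for leucine and other essential amino acids. In tumor cells SLC1A5 and SLC7A5 are known as Myc-responsive glutamine and leucine transporters, and SLC7A11, the cystine/glutamate exchanger, supplies cysteine for glutathione. When amino acids are scarce, the transcription factor ATF4 raises many of these genes through amino acid response elements.

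RefSeq promoter windows (GRCh38.p14, 250 bases before to 50 after a gene's start) were found for 24 of the 28 expressed members. None was used for SLC43A3, SLC6A6, SLC7A11 and SLC7A2. The E-box CACGTG, the preferred site of Myc with its partner Max, was in 4 of the 24 windows, and in 1407 of 15843 windows of protein-coding genes (8.88%). The amino acid response element, searched as TGATGNAA on both strands, was in 4 of the 24 and in 401 of the 15843 (2.53%). The 8 stretches of 30 bases that hold these letters are shown because they are where these motifs lie in the members tested below, with the motif in capitals, 5′ to 3′ on the strand of the gene. The E-boxes came first.
SLC7A5: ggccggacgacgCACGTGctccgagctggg
SLC38A7: gtgatgcatgctCACGTGtctccgcagccg
SLC43A1: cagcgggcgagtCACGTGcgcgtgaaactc
SLC1A7: gaactcctagacCACGTGgtctgctctaat
These stretches lie at chr16:87869620-87869649, chr16:58684739-58684768, chr11:57515797-57515826 and chr1:53142681-53142710, all with the gene on the minus strand, and their E-boxes begin at bases -130, 15, -112 and -60 from the start. The response elements followed.
SLC3A2: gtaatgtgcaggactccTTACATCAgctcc
SLC38A1: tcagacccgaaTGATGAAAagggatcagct
SLC7A1: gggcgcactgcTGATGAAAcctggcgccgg
SLC1A3: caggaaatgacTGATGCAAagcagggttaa
They lie at chr11:62881719-62881748 (plus strand, with the motif on the minus strand), chr12:46266502-46266531 (minus), chr13:29595663-29595692 (minus) and chr5:36596357-36596386 (plus), and begin at bases 38, -4, 8 and -220. RefSeq gives 1 start per gene, which for SLC3A2, SLC1A3, SLC38A1 and, by less, SLC43A1 differs from the outermost start of the gene in the count tables. A match describes the letters in the window and not binding, and the count of matches is small.

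Level per length ranked the members alike in most groups. On the scale of CPM per kb of gene model, SLC7A5 was highest in untreated cells, at 289 in parental 231 and 230.1 in 231:TKO, and SLC1A5 came next at 92.1 and 78.5. In the siNT-treated cells SLC1A5, at 88.5 in parental 231 and 83.5 in 231:TKO, ranked above SLC7A5, at 81.8 and 68.7. SLC3A2, the heavy chain, was at 56.0 and 54.1 CPM per kb in the untreated populations. With SLC38A2, SLC7A1, SLC43A3 and SLC38A1 these genes held ranks 1 to 7 in every group but 231:TKO+siMyc, where SLC6A6 ranked 6 and SLC7A1 ranked 8. In the parental siRNA groups the lengths were those of the later Ensembl release, in which the gene models of SLC3A2 and SLC1A3 are longer. The level of SLC7A5 in CPM was 1377 and 1377 in parental 231 and 1124 and 1069 in 231:TKO, against 307 to 478 in the 12 siRNA libraries. Since untreated and siRNA libraries differ in header number and read layout as well as in transfection, levels between them were not tested.

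**Figure D1:**
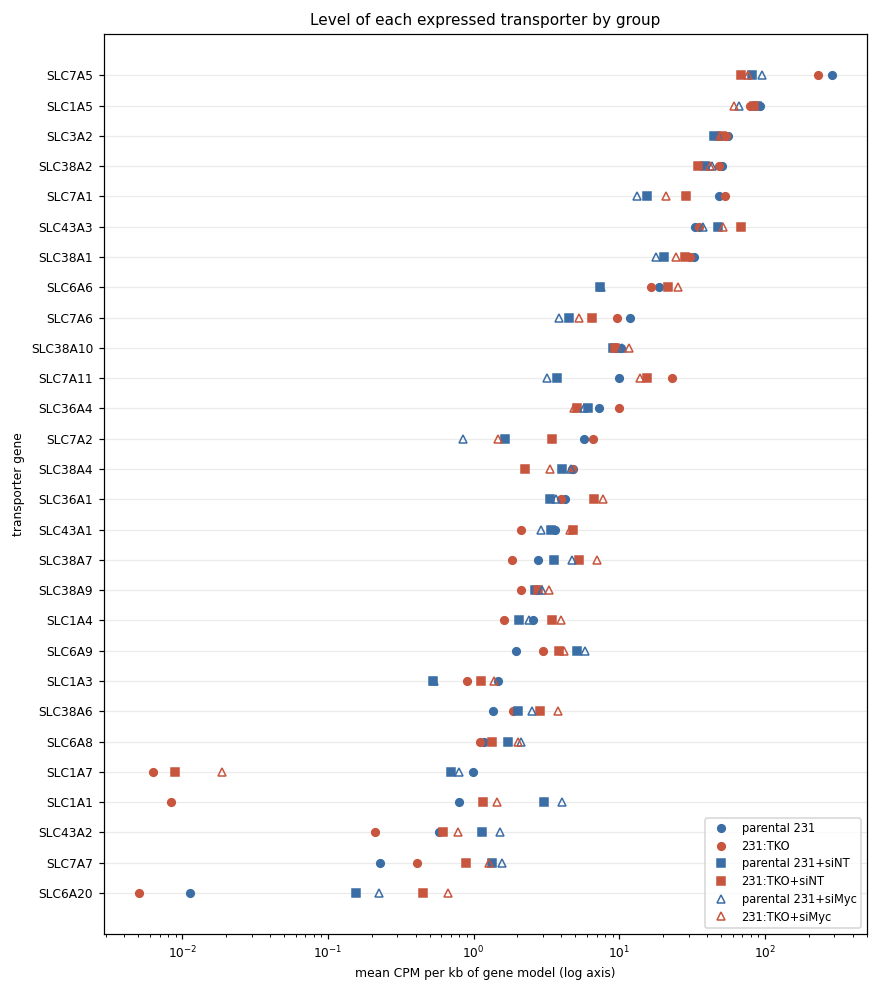
Mean level of the 28 expressed transporters in each group, in CPM per kb of gene model on a log axis, with blue for parental 231 and red for 231:TKO, circles for untreated, filled squares for siNT and open triangles for siMyc. SLC7A5 and SLC1A5 lie furthest to the right in every group, and SLC1A7, SLC1A1 and SLC6A20 in untreated 231:TKO lie below 0.01.

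The first question was which transporters depend on Myc in cells without TXNIP. In 231:TKO cells, siMyc lowered the arginine and lysine transporters SLC7A2 and SLC7A1, the glutamine transporter SLC1A5, the nucleobase transporter SLC43A3, SLC7A6, SLC38A1 and SLC7A11, and raised the other 6 expressed SLC38 genes together with SLC6, SLC36 and SLC43 members. Of the 28 expressed members, 12 were higher and 7 lower with siMyc at a Benjamini-Hochberg adjusted p-value of at most 0.05 in the quasi-likelihood test of edgeR, where 20.7% and 22.1% of all genes at 1 CPM or more were higher and lower. The median log2 fold change of the members was 0.19, and that of all these genes 0.002. In 1 fit of the 12 siRNA libraries, which pools their spread, 9 of these 19 calls were kept, and SLC7A1, SLC7A6, SLC7A11, SLC38A1, SLC38A7, SLC38A9, SLC6A6, SLC6A20, SLC36A1 and SLC43A2 lost theirs with the same direction. Over all genes tested, that fit called 2493, against 6106 in the fit of the 231:TKO libraries alone. Of all members, 39 passed the filter on low counts, and none of the 11 under 1 CPM among them passed the test. MYC itself changed by -1.21 in 231:TKO and by -0.96 in parental 231 on the log2 scale.

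In parental 231 cells the same comparison called 0 of 28 members by edgeR's test, where 0.417% of genes were called higher and 0.618% lower. An unadjusted p-value under 0.05 was found for 8 members, and for 3463 of all 23728 genes tested. DESeq2 called SLC7A2 and SLC1A5, both lower, among 1110 genes called in all, where edgeR called 141. With a factor for the library pair that stood apart, chosen after the data had been seen, 15 members were higher and 7 lower, where 22.8% and 21.9% of all genes were. With the pair left out, 14 members were called. Over all genes tested, 4673 were then called, against 6366 with the factor. Of the 19 members called in 231:TKO, 16 were called in the same direction in parental 231 with the factor, which is 84.2% of the 231:TKO list and 72.7% of the 22 in the parental list. The same overlap was not counted over all genes, so these shares do not set the members apart from other genes. The values of parental 231 below are given without the factor first and then with it.

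SLC7A2, a transporter of arginine, lysine and ornithine (ENSG00000003989, chromosome 8 from 17497088 to 17570573), fell most. It was at 26.8, 26.5 and 27.9 CPM in 231:TKO+siNT and 11.99, 11.4 and 11.7 in 231:TKO+siMyc. All 3 libraries with siMyc lay below all 3 with siNT, and the log2 fold change was -1.24 (SE 0.07, adjusted p = 6.57e-11), where SE is the standard error. The parental libraries had 9.35, 14.1 and 15.7 CPM in parental 231+siNT and 7.14, 7.61 and 5.26 in parental 231+siMyc, again without overlap, with log2 fold changes of -0.96 (SE 0.21, adjusted p = 0.0876) and -0.95 (SE 0.08, adjusted p = 3.34e-13). SLC7A1, the main transporter of the same amino acids in most cells, was at 207, 238 and 216 CPM in 231:TKO+siNT and 162, 158 and 162 in 231:TKO+siMyc. The groups did not overlap, and it changed by -0.49 (SE 0.05, adjusted p = 3.46e-07). In parental 231 it was at 83.7, 129.5 and 145 CPM in parental 231+siNT and 113, 116 and 73.8 in parental 231+siMyc. There the groups overlapped, where replicate 1 with siNT and replicate 3 with siMyc were both low, and the log2 fold changes were -0.23 (SE 0.23, adjusted p = 0.728) and -0.23 (SE 0.05, adjusted p = 5.91e-05). The fall of SLC7A1 lost its call in 1 fit of the 12 siRNA libraries (adjusted p = 0.195), and that of SLC7A2 kept it in all 12 alternatives.

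SLC1A5, the sodium-dependent exchanger of glutamine, alanine, serine and cysteine (ENSG00000105281, chromosome 19 from 46774883 to 46788594), was at 258, 315 and 261 CPM in 231:TKO+siNT and 211, 209 and 196 in 231:TKO+siMyc. Every siMyc library was below every siNT library. It fell in 231:TKO, with a log2 fold change of -0.47 (SE 0.06, adjusted p = 6.69e-06). The parental libraries were at 287, 289.7 and 308 CPM in parental 231+siNT and 216, 212 and 236 in parental 231+siMyc. The parental groups did not overlap either, and the log2 fold changes were -0.41 (SE 0.09, adjusted p = 0.092) and -0.41 (SE 0.04, adjusted p = 1.53e-10). The other neutral amino acid exchanger of the family, SLC1A4, was at 23.1, 27.3 and 22.0 CPM in 231:TKO+siNT and 29, 26.1 and 28.2 in 231:TKO+siMyc. It was not called, at 0.17 (SE 0.08, adjusted p = 0.109). Parental cells had 12.01, 14.9 and 15.7 CPM in parental 231+siNT and 17.5, 18.2 and 14.6 in parental 231+siMyc, with log2 fold changes of 0.25 (SE 0.14, adjusted p = 0.481) and 0.25 (SE 0.07, adjusted p = 0.00327).

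The glutamate transporters of the SLC1 family were low and none was called in 231:TKO. SLC1A3, a glutamate and aspartate carrier, was at 8.10, 6.08 and 6.91 CPM in 231:TKO+siNT and 8.99, 7.77 and 9.38 in 231:TKO+siMyc, a log2 fold change of 0.27 (SE 0.11, adjusted p = 0.0666). Parental cells had 10.3, 11.8 and 11.3 CPM in parental 231+siNT and 11.7, 11.5 and 10.7 in parental 231+siMyc, with an adjusted p of 0.942. SLC1A1, which carries glutamate and cysteine, was at 4.75, 4.89 and 4.26 CPM in 231:TKO+siNT and 5.16, 5.56 and 6.61 in 231:TKO+siMyc, and the log2 fold change was 0.29 (SE 0.11, adjusted p = 0.0668) although the groups did not overlap. In parental 231, SLC1A1 was at 10.9, 12.5 and 12.8 CPM in parental 231+siNT and 17.7, 17.8 and 12.8 in parental 231+siMyc, and it was higher with siMyc only with the pair factor or with the pair left out, among the fits tried, by 0.41 (SE 0.07, adjusted p = 6.54e-06) with the factor. SLC1A7, known from the retina, was at 0.0838, 0.0611 and 0 CPM in 231:TKO+siNT and 0.170, 0.108 and 0.0251 in 231:TKO+siMyc, and at 3.91, 3.89 and 3.59 CPM in parental 231+siNT and 4.39, 3.99 and 4.44 in parental 231+siMyc, and was not called in either population.

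**Figure D2:**
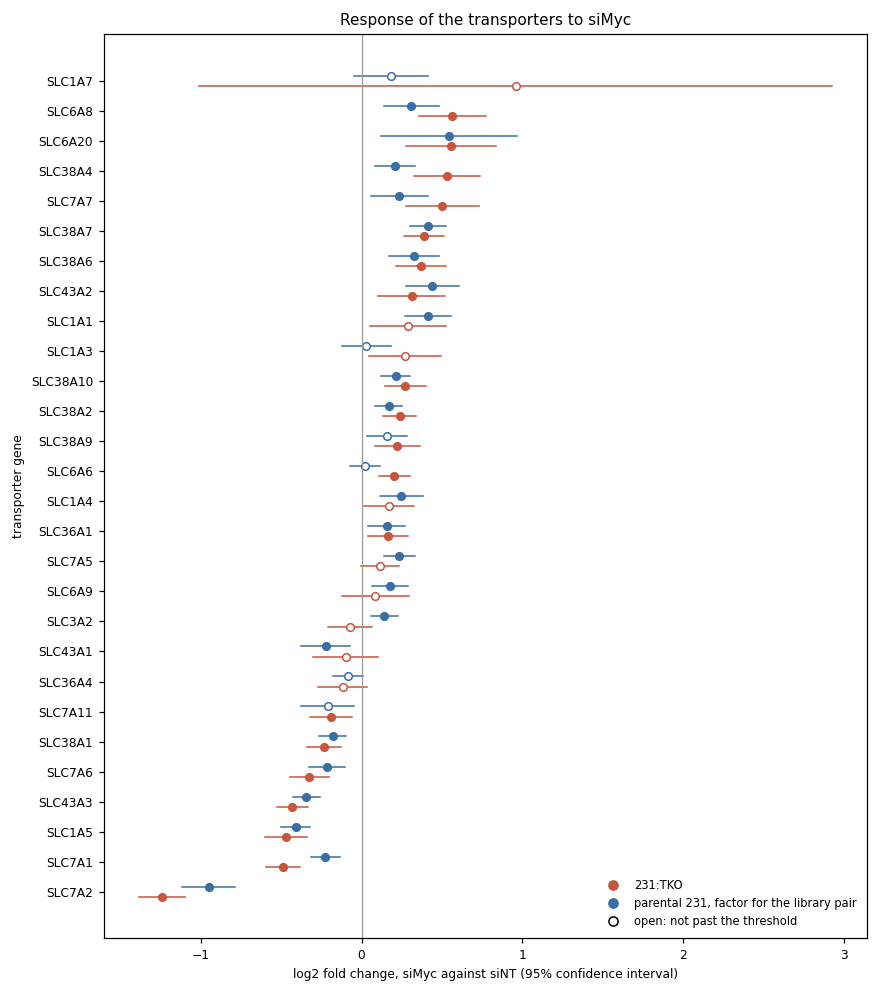
log2 fold change of each expressed transporter with siMyc against siNT, with its 95% confidence interval, in 231:TKO (red) and in parental 231 with a factor for the library pair (blue). Filled points passed the threshold in edgeR's test, from SLC7A2 at -1.24 and -0.95 at the bottom to SLC6A8 at 0.57 and 0.31 near the top.

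Of the 5 expressed chains of heteromeric transporters, 1 was higher with siMyc in 231:TKO, the light chain SLC7A7. The light chains SLC7A6 and SLC7A11 were lower, where 20.7% and 22.1% of all genes were higher and lower. SLC7A5, the leucine transporter with an E-box in its promoter window (ENSG00000103257, chromosome 16 from 87830023 to 87869507), was at 307, 353 and 322 CPM in 231:TKO+siNT and 379, 373 and 337 in 231:TKO+siMyc. The groups overlapped, and the log2 fold change was 0.12 (SE 0.06, adjusted p = 0.15), with a 95% confidence interval of -0.002 to 0.23. SLC7A5 was at 327, 389.9 and 452 CPM in parental 231+siNT and 478, 473 and 409 in parental 231+siMyc. There it changed by 0.23 (SE 0.13, adjusted p = 0.5) without the factor, and rose by 0.23 (SE 0.05, adjusted p = 0.000157) with it. Its partner SLC3A2 (ENSG00000168003, chromosome 11 from 62856102 to 62888875) was at 233, 297 and 248.6 CPM in 231:TKO+siNT and 264, 251 and 240.4 in 231:TKO+siMyc. It was not called, with an interval of -0.21 to 0.06 around -0.08 (adjusted p = 0.473). In parental 231 SLC3A2 was at 309, 273 and 269 CPM in parental 231+siNT and 298, 294 and 342 in parental 231+siMyc, with log2 fold changes of 0.14 (SE 0.11, adjusted p = 0.618) and 0.14 (SE 0.04, adjusted p = 0.00703).

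SLC7A6, which exchanges cationic for neutral amino acids, was at 50.9, 46.8 and 50.8 CPM in 231:TKO+siNT and 41.2, 38.7 and 41.4 in 231:TKO+siMyc. It fell without overlap, at -0.32 (SE 0.06, adjusted p = 0.000248). The parental values were 26.5, 40.0 and 36.03 CPM in parental 231+siNT and 32.0, 31.0 and 24.4 in parental 231+siMyc, with log2 fold changes of -0.22 (SE 0.17, adjusted p = 0.633) and -0.22 (SE 0.06, adjusted p = 0.00192). SLC7A7, a light chain of the same kind, rose instead. It was at 4.02, 5.11 and 4.45 CPM in 231:TKO+siNT and 6.69, 6.75 and 6.21 in 231:TKO+siMyc, a log2 fold change of 0.50 (SE 0.11, adjusted p = 0.00128), and at 6.78, 6.81 and 6.92 CPM in parental 231+siNT and 8.09, 8.38 and 7.55 in parental 231+siMyc, where it changed by 0.24 (SE 0.10, adjusted p = 0.345) and 0.24 (SE 0.09, adjusted p = 0.0427). SLC7A11 (ENSG00000151012, chromosome 4 from 138164097 to 138242349) was at 145, 145 and 156 CPM in 231:TKO+siNT and 119.9, 132 and 149 in 231:TKO+siMyc. It fell, at -0.19 (SE 0.06, adjusted p = 0.024), but 1 siMyc library was above 2 of the siNT libraries. The log2 change without single libraries ranged from -0.27 to -0.12, and the call was lost without replicate 1 or 3 of siNT or replicate 1 or 2 of siMyc. The parental values were 28.4, 44.2 and 34.7 CPM in parental 231+siNT and 32.0, 33.99 and 25.9 in parental 231+siMyc, and SLC7A11 was not called with the factor (log2 fold change -0.21, SE 0.08, adjusted p = 0.0601) or without it (adjusted p = 0.65).

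All 7 expressed SLC38 genes, sodium-coupled transporters of glutamine, alanine and other neutral amino acids, passed the test in 231:TKO, with 6 higher and 1 lower, where 20.7% and 22.1% of all genes were. In 1 fit of the 12 siRNA libraries SLC38A1, SLC38A7 and SLC38A9 were not called. Their median log2 fold change was 0.27, beside 0.002 over all genes at 1 CPM or more. SLC38A1, the member that fell, was at 278, 283 and 283 CPM in 231:TKO+siNT and 233, 238 and 263 in 231:TKO+siMyc. The groups did not overlap, and it changed by -0.23 (SE 0.05, adjusted p = 0.000978). SLC38A2, which is raised in starved cells through ATF4, was at 227, 223 and 230.6 CPM in 231:TKO+siNT and 264, 263 and 294 in 231:TKO+siMyc. It rose in every siMyc library above every siNT library, by 0.24 (SE 0.05, adjusted p = 0.000898). In parental 231 SLC38A1 was at 151, 232 and 229.9 CPM in parental 231+siNT and 196, 204 and 136 in parental 231+siMyc, with the low values in the pair of libraries, and changed by -0.18 (SE 0.20, adjusted p = 0.765) and -0.18 (SE 0.04, adjusted p = 0.00059). SLC38A2 was there at 239.9, 263 and 252 CPM in parental 231+siNT and 288, 293 and 263 in parental 231+siMyc, and changed by 0.17 (SE 0.09, adjusted p = 0.464) and 0.17 (SE 0.04, adjusted p = 0.00129).

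SLC38A4, which also carries cationic amino acids, was at 10.3, 7.86 and 9.73 CPM in 231:TKO+siNT and 12.5, 13.9 and 14.9 in 231:TKO+siMyc, a rise of 0.53 (SE 0.10, adjusted p = 0.000259). SLC38A7, a lysosomal transporter of glutamine and asparagine with an E-box in its window, was at 33.96, 36.7 and 34.8 CPM in 231:TKO+siNT and 47.0, 48.5 and 45.7 in 231:TKO+siMyc. The lowest siMyc library lay well above the highest siNT library, and the log2 fold change was 0.39 (SE 0.06, adjusted p = 3.63e-05). SLC38A6, whose substrates are less well known, was at 14.6, 15.9 and 13.8 CPM in 231:TKO+siNT and 19.0, 18.9 and 20.6 in 231:TKO+siMyc, a rise of 0.37 (SE 0.08, adjusted p = 0.000702). In parental 231, SLC38A4 was at 13.8, 18.2 and 18.4 CPM in parental 231+siNT and 21.4, 21.1 and 15.6 in parental 231+siMyc, and the lowest library of each group was that of the pair that stood apart. SLC38A7 was there at 18.9, 24.6 and 27.2 CPM in parental 231+siNT and 36, 34.2 and 23.8 in parental 231+siMyc, and SLC38A6 at 11.9, 10.2 and 9.23 CPM in parental 231+siNT and 12.1, 13.3 and 13.6 in parental 231+siMyc. With the factor the 3 genes rose in parental 231 by 0.21, 0.41 and 0.33, and without it the adjusted p-values were 0.633, 0.355 and 0.281. SLC38A9, the lysosomal arginine sensor upstream of mTORC1, was between 23.4 and 25.0 CPM in 231:TKO+siNT and between 27.0 and 31.4 in 231:TKO+siMyc (log2 fold change 0.22, SE 0.07, adjusted p = 0.0166), and lost its call without replicate 3 of siNT. SLC38A10 was between 73.4 and 74.8 and between 83.1 and 96.0 CPM (log2 fold change 0.27, SE 0.06, adjusted p = 0.00166).

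In the SLC6 family, 3 of the 4 expressed members rose in 231:TKO and none fell, where 20.7% and 22.1% of all genes did. The creatine transporter SLC6A8 was at 6.70, 8.50 and 7.75 CPM in 231:TKO+siNT and 12.6, 11.8 and 10.3 in 231:TKO+siMyc. The groups did not overlap, and the log2 fold change was 0.57 (SE 0.10, adjusted p = 0.000172). SLC6A20, a carrier of proline and other imino acids, was at 2.32, 3.42 and 3.19 CPM in 231:TKO+siNT and 4.31, 4.45 and 4.60 in 231:TKO+siMyc, a rise of 0.55 (SE 0.13, adjusted p = 0.00327). SLC6A6, the taurine transporter, was at 176, 181 and 176 CPM in 231:TKO+siNT and 209, 207 and 212 in 231:TKO+siMyc. It rose less, by 0.20 (SE 0.05, adjusted p = 0.00172). The glycine transporter SLC6A9 was at 17.5, 25.1 and 17.99 CPM in 231:TKO+siNT and 23.0, 20.6 and 22.0 in 231:TKO+siMyc and was not called (log2 fold change 0.09, SE 0.10, adjusted p = 0.603). In parental 231 SLC6A8 was at 8.64, 9.33 and 11.6 CPM in parental 231+siNT and 11.8, 11.98 and 12.5 in parental 231+siMyc, without overlap of the groups. SLC6A20 was there at 0.777, 1.51 and 0.812 CPM in parental 231+siNT and 1.37, 1.87 and 1.26 in parental 231+siMyc, and the groups overlapped. SLC6A6 stood at 44.8, 70.3 and 68.4 CPM in parental 231+siNT and 72.1, 70.2 and 43.5 in parental 231+siMyc, with the low values in the pair of libraries, and SLC6A9 at 24.6, 27.6 and 29.2 CPM in parental 231+siNT and 33.1, 29.6 and 28.6 in parental 231+siMyc. With the factor SLC6A8, SLC6A20 and SLC6A9 rose there by 0.31, 0.54 and 0.18, and SLC6A6 stood at 0.02 (SE 0.05, adjusted p = 0.822). SLC6A20 and SLC6A6 missed the threshold in 1 fit of the 12 libraries.

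The SLC43 genes moved in different directions. SLC43A3, known as a carrier of purine nucleobases, was at 295, 315 and 313 CPM in 231:TKO+siNT and 235, 229 and 237 in 231:TKO+siMyc. It fell without overlap, at -0.43 (SE 0.05, adjusted p = 3.47e-07). In parental 231 it was at 193, 223 and 231.4 CPM in parental 231+siNT and 172, 176 and 159 in parental 231+siMyc, with log2 fold changes of -0.35 (SE 0.10, adjusted p = 0.167) and -0.34 (SE 0.04, adjusted p = 3.86e-09). SLC43A2, a facilitator of branched-chain amino acids, rose from 6.09, 7.31 and 6.12 CPM to 8.73, 8.31 and 7.72, by 0.31 (SE 0.10, adjusted p = 0.0229). Without single libraries its change ranged from 0.27 to 0.40, and the call was lost without replicate 1 or 3 of siNT or replicate 1 or 2 of siMyc. In parental 231 SLC43A2 was at 12.5, 10.3 and 13.2 CPM in parental 231+siNT and 17.6, 15.3 and 15.6 in parental 231+siMyc, and changed by 0.44 (SE 0.13, adjusted p = 0.155) and 0.44 (SE 0.08, adjusted p = 4.15e-05). Its relative SLC43A1, with an E-box in its window, was at 15.97, 20.2 and 14.4 CPM in 231:TKO+siNT and 17.0, 15.98 and 15.4 in 231:TKO+siMyc and was not called (log2 fold change -0.10, SE 0.10, adjusted p = 0.525). Parental libraries were at 12.4, 11.6 and 12.05 CPM in parental 231+siNT and 9.79, 10.6 and 10.3 in parental 231+siMyc, a change of -0.22 (SE 0.08, adjusted p = 0.0227) with the factor. Of the proton-coupled SLC36 genes, SLC36A1, a lysosomal exporter, was at 48.8, 44.7 and 46.6 CPM in 231:TKO+siNT and 55.3, 53.5 and 51.9 in 231:TKO+siMyc, a rise of 0.16 (SE 0.06, adjusted p = 0.0455). Its change ranged from 0.13 to 0.20 without single libraries and was not called without replicate 2 or 3 of siNT or replicate 1 or 2 of siMyc. SLC36A4 was at 51.6, 46.5 and 51.8 CPM in 231:TKO+siNT and 43.9, 43.5 and 54.0 in 231:TKO+siMyc and was not called (log2 fold change -0.12, SE 0.07, adjusted p = 0.269). In parental 231 SLC36A1 was at 16.2, 25.9 and 27.6 CPM in parental 231+siNT and 28.9, 30.4 and 17.9 in parental 231+siMyc, and SLC36A4 at 58.4, 59.7 and 59.9 CPM in parental 231+siNT and 54.6, 58.7 and 53.4 in parental 231+siMyc.

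Of the 4 members with an E-box in the window, 1 was higher (SLC38A7), 0 were lower and 3 were not called with siMyc in 231:TKO, where 20.7% and 22.1% of all genes were higher and lower. Of the 4 with a response element, SLC7A1 and SLC38A1 were lower and SLC3A2 and SLC1A3 were not called. SLC7A2, SLC43A3 and SLC7A11, which were among the 7 members that fell, are without a window here. SLC1A7, an E-box member not called, had only 5 reads in 231:TKO+siNT and 11 in 231:TKO+siMyc. In untreated 231:TKO against parental 231, 0 E-box members were higher and 3 lower, where 7.97% and 5.46% of all genes at 1 CPM or more were. With siNT, 2 E-box members were higher and 1 lower in 231:TKO, where 22.4% and 28.2% of all genes were. Of the members with a response element, 0 were called in untreated cells, and 2 were higher and 1 lower in 231:TKO with siNT, beside the same shares.

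**Figure D3:**
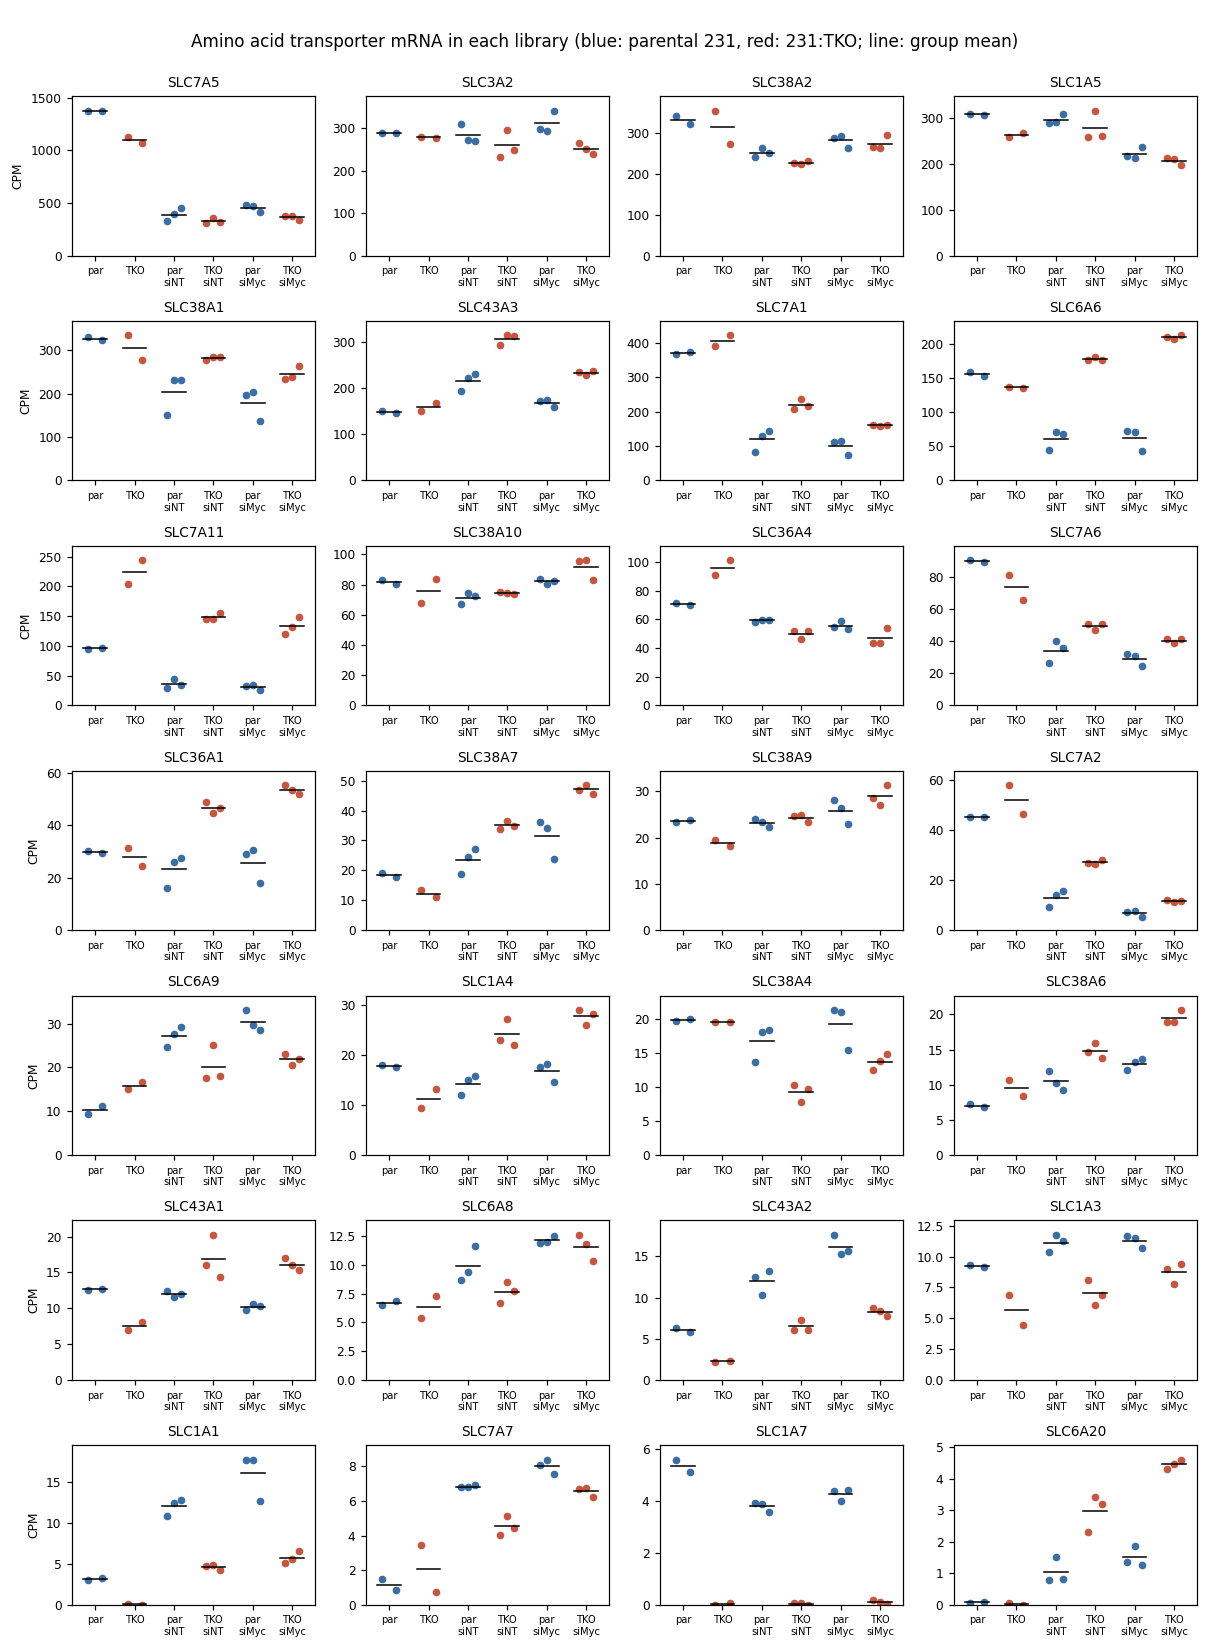
CPM of the 28 expressed transporters in each of the 16 libraries, each panel with its own axis from 0, with blue points for parental 231, red for 231:TKO and a line at each group's mean. SLC7A2, SLC1A5 and SLC43A3 lie lower with siMyc in both populations, and SLC6A6, SLC7A11 and SLC36A1 lie higher in 231:TKO than in parental 231 among the siRNA libraries.

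A second question was whether the response to siMyc differs between the populations. The difference of the responses, as an interaction in 1 fit of the 12 siRNA libraries, was past the threshold for 0 of 28 members, where 0% of all genes were higher or lower, and 0 members had an unadjusted p-value under 0.05 by edgeR or passed DESeq2's test. Of all 25812 genes tested, 1039 had such an unadjusted p-value by edgeR, and DESeq2 called 6 genes. With the factor for the library pair, 0 members were past it, where 0.692% of all genes were higher and 0.32% lower. The unadjusted p-value by edgeR was then under 0.05 for 8 members, and for 2374 of all 25812 genes tested. The smallest adjusted p-value among the members was that of SLC7A1, whose response differed by -0.23, the response of 231:TKO minus that of parental 231 (95% confidence interval -0.38 to -0.09, adjusted p = 0.141). For SLC38A4 the difference was 0.35 (0.13 to 0.58, adjusted p = 0.167), and for SLC6A6 0.21 (0.07 to 0.36, adjusted p = 0.205). For SLC1A5 it was -0.03 (-0.20 to 0.13), for SLC7A5 -0.09 (-0.24 to 0.06) and for SLC7A2 -0.26 (-0.49 to -0.04). Without the factor the interval of SLC1A5 was -0.30 to 0.23 and that of SLC7A2 -0.73 to 0.22.

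The third question was how cells without TXNIP differ from parental 231. In untreated cells, 231:TKO had more SLC7A11 and SLC36A4 and less SLC1A1, SLC1A7, SLC43A2, SLC43A1 and SLC7A5. In the quasi-likelihood test of edgeR, adjusted by Benjamini-Hochberg, 2 of the 27 expressed members tested were higher and 5 lower, where 7.97% and 5.46% of all genes at 1 CPM or more were. The median log2 fold change of these members was -0.10 and that of all these genes 0.01. SLC6A20, with 0 to 0.0995 CPM in these 4 libraries, did not pass the filter on low counts. When either parental 231 replicate was left out, 0 members were called, and without replicate 1 or 2 of 231:TKO 21 and 19 were, with the spread then taken from the remaining pair. Over all genes tested, 1919 were called, 0 without either parental 231 replicate, and 7002 and 6797 without replicate 1 or 2 of 231:TKO. With 2 replicates a group and the 231:TKO replicates far apart, a member not called here is not shown to be alike. TXNIP itself, at 283 and 283 CPM in parental 231 and 12.4 and 45.5 in 231:TKO, was not called in this test.

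SLC7A11 was at 94.3 and 96.7 CPM in parental 231 and 204 and 244 in 231:TKO. Both 231:TKO replicates were above both parental replicates by more than the spread, and the log2 fold change was 1.22 (SE 0.10, adjusted p = 0.00753). SLC7A11 lies on chromosome 4, in a 20 Mb window in which the median of 37 genes was 0.55 higher in 231:TKO. With the window medians taken out, its log2 fold change was 0.67, still past the threshold. SLC36A4, which carries proline and tryptophan, was at 71.7 and 70.2 CPM in parental 231 and 91.3 and 101 in 231:TKO, a difference of 0.43 (SE 0.08, adjusted p = 0.0344).

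SLC1A1 (ENSG00000106688, chromosome 9 from 4490468 to 4587469) was at 3.05 and 3.28 CPM in parental 231 and 0.0667 and 0 in 231:TKO. This rests on 126 reads in parental 231 against 2 in 231:TKO, a ratio of 93.7 with a counting interval of 25.4 to 782. SLC1A7 (ENSG00000162383, chromosome 1 from 53087179 to 53142638) was at 5.59 and 5.13 CPM in parental 231 and 0 and 0.0686 in 231:TKO, with 213 reads against 2 and a ratio of 158 (43.3 to 1317). The adjusted p-values were 0.0108 and 0.00813. SLC7A4, a relative of the cationic transporters under 1 CPM on average, had 38 reads in parental 231 and 0 in 231:TKO, at least 18.8-fold lower with 3 counts over the group as the floor (adjusted p = 0.0164). The GABA transporter SLC6A11 had 16 reads against 1, a ratio of 23.8 (3.70 to 998), with an adjusted p of 0.0446. These 2 were the members under 1 CPM called in untreated cells, of 8 tested. SLC1A1, SLC1A7, SLC7A4 and SLC6A11 all passed the filter on low counts only through the reads in parental 231. In a bulk library, fewer cells with a transcript and less of it per cell cannot be told apart.

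SLC43A2 was at 6.36 and 5.82 CPM in parental 231 and 2.23 and 2.26 in 231:TKO and SLC43A1 at 12.6 and 12.7 CPM in parental 231 and 6.97 and 8.03 in 231:TKO. Both were lower in each 231:TKO replicate, at -1.44 (SE 0.19, adjusted p = 0.0164) and -0.76 (SE 0.14, adjusted p = 0.0354). The genes near SLC43A2 on chromosome 17 had a median of -0.35. SLC7A5 was lower in 231:TKO, with the CPM values given above, at -0.34 (SE 0.06, adjusted p = 0.0346), a small difference at a high level. Its heavy chain SLC3A2, at 289.5 and 288 CPM in parental 231 and 280.0 and 278 in 231:TKO, was not called (log2 fold change -0.06, SE 0.06, adjusted p = 0.582). Under the replicate block, SLC7A5, SLC43A1 and SLC36A4 lost their calls.

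The glutamine transporters were not called in untreated cells. SLC1A5 was at 308 and 306 CPM in parental 231 and 257 and 266 in 231:TKO, with both 231:TKO replicates lower and a log2 fold change of -0.24 (SE 0.06, adjusted p = 0.0699). SLC38A1 was at 329.6 and 323 CPM in parental 231 and 334 and 277 in 231:TKO. SLC38A2 was at 342 and 323 CPM in parental 231 and 354 and 272 in 231:TKO. For both, 1 of the 231:TKO replicates was above and 1 below both parental replicates. SLC1A4 was at 18 and 17.6 CPM in parental 231 and 9.37 and 13.2 in 231:TKO, a difference of -0.67 (SE 0.19, adjusted p = 0.0965). SLC38A7 was at 19.0 and 17.9 CPM in parental 231 and 13.3 and 11.01 in 231:TKO, a difference of -0.61 (SE 0.13, adjusted p = 0.053). These 2 were lower in both 231:TKO replicates but not past the threshold. The cationic transporters were not called either. SLC7A1 was at 369 and 373 CPM in parental 231 and 392 and 422 in 231:TKO, with an adjusted p of 0.309. SLC7A2 was at 45.2 and 45.1 CPM in parental 231 and 58.0 and 46.3 in 231:TKO, with an adjusted p of 0.376.

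SLC6A6, SLC43A3, SLC7A6 and SLC36A1 had log2 fold changes between -0.30 and 0.08 in untreated cells, and none of these 4 passed the test. The taurine transporter SLC6A6 was at 159 and 152 CPM in parental 231 and 137 and 135 in 231:TKO. SLC43A3 was at 152 and 147 CPM in parental 231 and 150.5 and 168 in 231:TKO. SLC7A6 was lower in both 231:TKO replicates, at 90.6 and 89.7 CPM in parental 231 and 81.4 and 66.1 in 231:TKO, and SLC36A1 was at 30.3 and 29.3 CPM in parental 231 and 31.3 and 24.5 in 231:TKO. Of the less abundant genes, the glycine transporter SLC6A9 was at 9.46 and 11.2 CPM in parental 231 and 15 and 16.6 in 231:TKO. SLC38A6 was at 7.22 and 6.77 CPM in parental 231 and 10.6 and 8.44 in 231:TKO. Both were higher in the 231:TKO replicates than in the parental replicates without being called. The glutamate carrier SLC1A3, also not called, was lower in both, at 9.31 and 9.16 CPM in parental 231 and 6.87 and 4.43 in 231:TKO. The groups of SLC38A4, at 19.8 and 20.003 CPM in parental 231 and 19.6 and 19.7 in 231:TKO, lay close together, and SLC6A8 was at 6.51 and 6.87 CPM in parental 231 and 5.40 and 7.31 in 231:TKO. SLC7A7 was at 1.47 and 0.846 CPM in parental 231 and 3.47 and 0.721 in 231:TKO, and its 231:TKO replicates lay 2.19 apart on the log2 scale. SLC38A9 and SLC38A10 had log2 fold changes of -0.33 and -0.12.

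**Figure D4:**
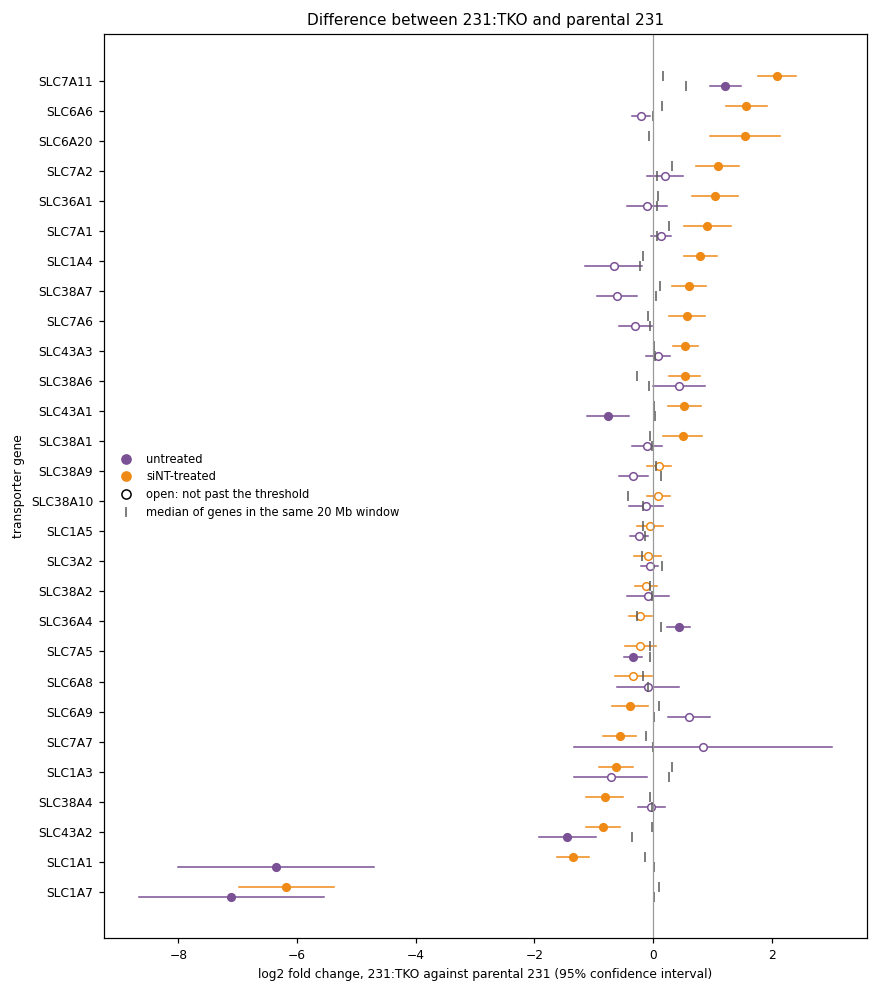
log2 fold change of each expressed transporter in 231:TKO against parental 231, with its 95% confidence interval, in untreated cells (purple) and with siNT (orange), filled where past the threshold in edgeR's test. Grey ticks are the medians of the genes in the same 20 Mb window. SLC7A11 stands at 1.22 and 2.09, SLC6A6 at -0.20 and 1.57, and SLC1A7 at -7.11 and -6.18.

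Between the siNT-treated populations, 231:TKO had more of the cystine, taurine, imino acid, cationic and proton-coupled carriers SLC7A11, SLC6A6, SLC6A20, SLC7A2, SLC36A1 and SLC7A1, and less SLC1A7, SLC1A1, SLC43A2 and SLC38A4. Of the 28 expressed members, 13 were higher and 7 lower, where 22.4% and 28.2% of all genes at 1 CPM or more were. With siMyc, 13 were higher and 8 lower in 231:TKO than in parental 231, where 25.3% and 29.4% of all genes were. The median log2 fold change of the members was 0.10 with siNT and 0.17 with siMyc, and that of all these genes -0.03 and -0.02. Of the luminal and epithelial markers (EPCAM, CDH1, GATA3, KRT8, KRT18), 1 was higher and 4 were lower in 231:TKO with siNT. The higher one, GATA3, was between 15.3 and 16.3 CPM in 231:TKO+siNT and between 11.6 and 14.3 in parental 231+siNT. The sum of these markers, of which KRT8 made the largest part, was between 964 and 1030 CPM in 231:TKO+siNT. It was between 1809 and 2190 in parental 231+siNT, and the part of these markers in the differences was not tested. Without replicate 1 of parental 231+siNT 23 members were called, and without replicate 3 of parental 231+siMyc 24, while the genes called in all went from 8578 to 10877 and from 9558 to 11354.

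The values of the single libraries are those given with the response to siMyc. SLC7A11 was higher in 231:TKO by 2.09 (SE 0.15, adjusted p = 1.33e-06) with siNT and by 2.13 (SE 0.12, adjusted p = 2.08e-08) with siMyc, where the window medians were 0.18 and 0.08. In both pairs of groups every 231:TKO library lay far above every parental library. SLC6A6 was higher by 1.57 (SE 0.15, adjusted p = 2.44e-05) and 1.76 (SE 0.16, adjusted p = 6.03e-06), and its groups did not overlap either. SLC6A20 was higher by 1.55 (SE 0.27, adjusted p = 0.000872) and 1.58 (SE 0.17, adjusted p = 6.71e-06), at a low level. SLC7A2 was higher by 1.09 (SE 0.16, adjusted p = 0.000389) with siNT and by 0.82 (SE 0.13, adjusted p = 0.000302) with siMyc, and SLC7A1 by 0.92 (SE 0.18, adjusted p = 0.00311) and 0.67 (SE 0.14, adjusted p = 0.00223). Genes near these on chromosomes 8 and 13 had medians of 0.32 and 0.28 with siNT.

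SLC36A1 was higher by 1.04 with siNT and 1.06 with siMyc, SLC1A4 by 0.80 and 0.73, and the lysosomal SLC38A7 by 0.61 and 0.59. SLC7A6 (0.57 and 0.48), SLC43A3 (0.55 and 0.47), SLC38A6 (0.54 and 0.59), SLC43A1 (0.53 and 0.66) and SLC38A1 (0.50 and 0.46) were higher as well, on the log2 scale and in the same order of groups. The call of SLC38A1 was lost without any 1 of the 231:TKO+siNT replicates, at adjusted p-values of up to 0.0802, and in the siMyc-treated groups without replicate 3 of 231:TKO (0.11). Against these, SLC1A7 had 537 reads in parental 231+siNT and 5 in 231:TKO+siNT, a ratio of 79.0 (33.6 to 244), and 668 against 11 with siMyc, a ratio of 43.6 (24.2 to 87.8). SLC1A1 was lower, at -1.35 (SE 0.12, adjusted p = 8.02e-06) with siNT and at -1.47 (SE 0.15, adjusted p = 4.39e-06) with siMyc. SLC43A2 was lower, at -0.85 (SE 0.13, adjusted p = 0.000409) and -0.97 (SE 0.11, adjusted p = 1.16e-05).

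SLC38A4 (-0.82 and -0.48), SLC1A3 (-0.62 and -0.37) and SLC6A9 (-0.39 and -0.47) were lower in both pairs of groups, and SLC7A7 with siNT (-0.56). SLC38A4 lost its call with siMyc without replicate 1 of 231:TKO, and SLC1A3 without replicate 2 of 231:TKO or replicate 1 of parental 231. The gene model of SLC1A3 is 6265 bases long in the earlier release and 21227 in the later, so its counts in these groups cover different lengths, and that of SLC3A2 grew from 5154 to 6392 bases. SLC6A9 with siNT had groups that overlapped, and was not called by DESeq2 (adjusted p = 0.055) or without replicate 1 or 3 of 231:TKO or 2 or 3 of parental 231, with changes from -0.57 to -0.30. SLC7A5 was not called with siNT, at -0.22 (SE 0.12, adjusted p = 0.185), and was lower with siMyc, at -0.32 (SE 0.10, adjusted p = 0.0171). Its heavy chain SLC3A2 stood at -0.09 (SE 0.11, adjusted p = 0.537) and was lower with siMyc, at -0.30 (SE 0.09, adjusted p = 0.0211). Without replicate 2 or 3 of 231:TKO+siMyc both missed the threshold, SLC7A5 also without replicate 1 or 2 of parental 231+siMyc, with changes from -0.39 to -0.26 and -0.34 to -0.23. SLC3A2 also missed it with the window medians taken out (-0.13). SLC1A5, the glutamine exchanger, was called with neither siRNA, at -0.05 (SE 0.10, adjusted p = 0.741) with siNT and -0.10 (SE 0.09, adjusted p = 0.402) with siMyc, nor were SLC38A2, SLC38A9, SLC38A10, SLC36A4 and SLC6A8.

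Members under 1 CPM on average also differed. SLC7A4 had 82 reads in parental 231+siNT and 0 in 231:TKO+siNT, at least 20.1-fold lower, and 225 against 1 with siMyc, a ratio of 162 (28.7 to 6414). In parental 231 it was the only member, expressed or not, called with siMyc by edgeR in the fit of the 6 parental siRNA libraries without the factor, at 0.691, 0.517 and 0.534 and 1.41, 1.34 and 1.58 CPM, a log2 fold change of 1.32 (SE 0.20, adjusted p = 0.0446). The carrier of neutral and cationic amino acids SLC6A14 had 210 reads against 4 with siNT, a ratio of 38.6 (14.9 to 143). The betaine carrier SLC6A12 was at 1.75, 2.07 and 2.18 CPM in parental 231+siNT and 0.391, 0.0917 and 0.479 in 231:TKO+siNT, and was lower with siNT and siMyc, at log2 fold changes of -2.57 and -2.42. SLC3A1, the other heavy chain, had 72 reads against 1 with siNT. SLC38A5 (81 against 9 reads) and SLC7A10 were lower with siNT. For SLC7A10 this rests on 2, 6 and 6 reads in the parental 231+siNT libraries and 0 in each of 231:TKO+siNT. Between the siMyc-treated populations neither was called. With siNT, SLC7A4, SLC3A1, SLC6A14 and SLC7A10 passed the filter on low counts only through the parental reads. So did SLC1A7, with 5 reads in 231:TKO+siNT, and, with siMyc, SLC7A4. SLC7A8, a light chain of SLC3A2, was higher, with 38 reads in 231:TKO+siNT and 12 in parental 231+siNT, a ratio of 4.31 (2.20 to 9.06). With the factor, SLC38A5 was lower with siMyc in parental 231, at -1.73 (adjusted p = 0.000223).

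The difference between 231:TKO and parental 231 was itself compared between untreated and siNT-treated cells, in 1 fit of the 10 libraries. It differed for 14 of 28 members, with 3 higher and 11 lower in untreated cells, where 13.9% and 10.3% of all genes at 1 CPM or more were. Among the members called, the largest differences were those of SLC1A1 (log2 fold change -5.07, SE 0.53, adjusted p = 2.03e-05), SLC6A6 (log2 fold change -1.77, SE 0.21, adjusted p = 5.86e-05), SLC1A4 (log2 fold change -1.46, SE 0.23, adjusted p = 0.000546), SLC43A1 (log2 fold change -1.29, SE 0.21, adjusted p = 0.000835) and SLC38A7 (log2 fold change -1.22, SE 0.20, adjusted p = 0.000925). That of SLC1A1 is a fitted value that rests on 2 reads in untreated 231:TKO and is no bound. SLC6A20 and SLC7A7, at -2.64 and 1.41, were not called. SLC43A1 was lower in untreated 231:TKO and higher with siNT, past the threshold in each. SLC7A11 was higher in 231:TKO in both and less so in untreated cells, a difference of -0.87 (SE 0.20, adjusted p = 0.00906). The untreated and siNT-treated libraries also differ in header number and read layout, and their part in these differences cannot be told apart from that of transfection. Nor can that of header number and Ensembl release, which differ between the siNT-treated populations but not between the untreated ones.

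Other genes of amino acid use, from lists chosen by symbol, were tested in the same fits, where siMyc raised 20.7% and lowered 22.1% of all genes in 231:TKO. Of 13 expressed genes of the amino acid response under ATF4, siMyc raised 1 (NUPR1, 0.88) and lowered 2 (PSAT1, an enzyme of serine synthesis, -0.79, and ATF4, -0.22) in 231:TKO, with a median of -0.16. Of 27 genes that sense amino acids for mTORC1, 8 rose and 1 fell, with a median of 0.09. Risers were CASTOR1 (1.13), a cytosolic arginine sensor, RRAGB (0.37) and RRAGC (0.31), which are Rag GTPases at the lysosome, and SEH1L fell (-0.53). Of 11 enzymes of glutamine, glutamate and glutathione, 5 fell and 0 rose, with a median of -0.18, among them GOT2 (-0.40) and GPT2 (-0.40), which are transaminases of glutamate. Of 8 amino acid transporters of other families, 2 rose (CTNS, 0.34, and SLC66A1, 0.22, both lysosomal exporters) and 4 fell, SLC16A10 (-1.14), a carrier of aromatic amino acids, most. Between the siNT-treated populations 1 of the 13 ATF4 genes was higher and 4 were lower in 231:TKO, TRIB3 (-1.16), CHAC1 (-1.86), PHGDH (-1.51) and DDIT4 (-0.36), while 11 of the 27 sensing genes were higher and 9 lower, where 22.4% and 28.2% of all genes were.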

How the data were processed

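RNA was measured by poly(A)-selected, stranded RNA-seq in 16 libraries of MDA-MB-231 cells. The authors deposited raw read counts per Ensembl gene, made by alignment with STAR to GRCh38 and by featureCounts 1.6.3 on the reverse strand. The headers of the deposited count tables name a later Ensembl release for part of the libraries, and 60620 identifiers are in both. Symbols were found for 58705 of 60719 identifiers (96.7%).

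Groups came from the sample labels. Each comparison was fitted over all genes whose counts summed to more than 5 in the libraries compared, by the robust quasi-likelihood test of edgeR 4.0.16 (limma 3.58.1, R 4.3.3) with TMM scaling, Benjamini-Hochberg adjustment and a threshold of 0.05. CPM are TMM-scaled over the 16 libraries. Every member at a mean of 1 CPM or more was named, with values per library for those that passed with a log2 change of at least 0.5 and for SLC1A5, SLC3A2, SLC7A5, SLC7A11, SLC7A1, SLC38A2, SLC1A4 and SLC38A1. Members under 1 CPM were named where they passed. The members, the lists and the tests were chosen with earlier results of these data known. Ratios of summed reads have exact 95% intervals and a floor of 3 counts, and cover counting error only. At the smallest library, 3 counts are 0.158 CPM. Alternatives were DESeq2 1.42.0, DESeq2 size factors, other filters and thresholds, a replicate block, single libraries left out, 1 fit of the 12 siRNA libraries, and the medians of 20 Mb windows with at least 15 genes taken out. The factor for the library pair that stood apart was added after the data had been seen. Scripts were tested on simulated data. Promoter sequences are from RefSeq (GRCh38.p14), and gene coordinates are GRCh38. 1 gene of the lists is not reported here.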

Additional observations from a re-analysis of the deposited data

Results flagged for a closer look

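The difference between 231:TKO and parental 231 was not of the same size in untreated and in siNT-treated cells for 14 expressed transporters, by an interaction in 1 edgeR fit of the 10 libraries. As the untreated difference minus the siNT difference on the log2 scale, 11 were below 0: SLC1A1 (-5.07), the taurine carrier SLC6A6 (-1.77), the neutral exchanger SLC1A4 (-1.46), SLC43A1 (-1.29), the lysosomal SLC38A7 (-1.22), SLC36A1 (-1.15), SLC7A2 (-0.89), SLC7A11 (-0.87), SLC7A6 (-0.87), SLC7A1 (-0.79) and SLC43A3 (-0.46). SLC6A9 (1.00), SLC38A4 (0.79) and SLC36A4 (0.65) were above 0. SLC1A1, SLC6A6, SLC1A4, SLC43A1, SLC38A7 and SLC36A4 passed the threshold in every fit with 1 library left out, and each of the other 8 missed it without at least 1 library. The value of SLC1A1 rests on 2 reads in untreated 231:TKO. Header number, read layout and transfection changed together between these sets of libraries and cannot be told apart. The siNT-treated populations also had different header numbers and Ensembl releases, whereas the untreated populations shared 1 header number and 1 release. A difference of header number or release between the siNT-treated populations therefore cannot be told apart from these values either.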

How the results depend on the processing

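Values here are numbers of the 28 expressed members past the threshold, beside the count reported. For 231:TKO against parental 231 (7) there were 2 at an adjusted p-value of at most 0.01, 4 with the replicate block, and 0 to 21 with single libraries left out, 0 without parental 231 replicate 1 or 2, 21 without 231:TKO replicate 1 and 19 without 231:TKO replicate 2. Of all genes tested, 1919 were called in that comparison, 229 at the stricter p-value and 904 with the block. For siMyc in 231:TKO (19) there were 5 with a log2 change of at least 0.5, 9 in 1 fit of the 12 siRNA libraries, and 15 to 21 with single libraries left out. Over all genes tested, 1639 passed with the log2 limit and the fit of the 12 libraries called 2493, against 6106. For siMyc in parental 231 (0) there were 2 by DESeq2, 1 with no filter on low counts, 4 in 1 fit of the 12 siRNA libraries, 0 to 1 with single libraries left out, 22 with the factor for the library pair and 14 with that pair left out, the last 2 settings chosen after the data had been seen. Of all genes tested in parental 231, the reported fit called 141, DESeq2 1110, the fit without a filter 330 and that of the 12 libraries 1666. The factor gave 6366 genes and leaving the pair out 4673. For the difference of the siMyc responses the count of members was 0 in every setting. Between the populations with siNT (20) the settings gave 18 to 23, and with siMyc (21) they gave 17 to 24 apart from 13 with a log2 change of at least 0.5. For the untreated minus the siNT difference (14) there were 9 at an adjusted p-value of at most 0.01 and 8 to 16 with single libraries left out, 8 without parental 231 replicate 1 and 9 without parental 231 replicate 2. Of all genes tested, 3544 were called for this last difference and 1803 at the stricter p-value. No member called in a comparison turned its direction in any setting. The causes of these changes were not tested, except that a log2 limit or a stricter p-value can only remove calls.

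Whether equal replicate numbers pair the libraries was checked by the correlation over genes of same-numbered deviations from the group means. It was 0.02 in untreated cells, where with 2 replicates a group both numbers give the same value by construction. In siRNA-treated 231:TKO it was -0.10, 0.09 and 0.21. In siRNA-treated parental 231, with the pair that stood apart included, it was -0.77, 0.58 and -0.70. The libraries were therefore not treated as paired in the main fits. With the replicate block the counts were 4, 23 and 0 in these 3 comparisons, 0 for the difference of the responses, 20 with siNT, 20 with siMyc and 15 for the untreated minus the siNT difference. In the same order, 904, 6831, 0, 0, 8481, 8182 and 3422 of all genes tested were called. Depth limited the members under 1 CPM, where a group held as few as 0 to 3 reads.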
